A study of Mus musculus with 4 samples.

Results

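The genes described here encode the proteins of the mitochondrial ribosome, the particle that translates the few proteins encoded by mitochondrial DNA, all of them subunits of the respiratory chain and the ATP synthase. Its proteins are themselves encoded in the nucleus, made in the cytosol and imported. They are named Mrpl for the large subunit, which forms peptide bonds, and Mrps for the small subunit, which decodes the mRNA. CPEB2 is an RNA-binding protein that recognizes the cytoplasmic polyadenylation element (CPE), a U-rich motif near the 3′ end of an mRNA, and controls translation of the mRNAs that carry it. In RNA immunoprecipitation (RIP), the RNA recovered with an antibody to such a protein is set against the RNA recovered with non-specific IgG.

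Members were all genes whose symbol in the array annotation starts with Mrpl or Mrps followed by a number. There were 76 of them among 24185 gene symbols, 47 Mrpl and 29 Mrps, with 106 probes of 60 bases. Cortical and hippocampal tissue was taken from 8-week-old male C57BL/6 mice, with no allele or agent named in the labels, and its lysate was divided between beads with CPEB2 IgG and beads with control IgG. RNA from 2 such experiments was hybridized to 4 one-color arrays, 2 for each antibody. A text field of the CPEB2 IgG arrays names CPEB3, whereas their titles and the protocol name CPEB2. No array of the input lysate was used here, so a value shows how much of an mRNA one antibody recovered relative to the other. Both antibodies were given parts of the same lysate of whole tissue, so a value does not tell from which cell type an mRNA came. The arrays shared 1 slide, and the position on it cannot be told apart from the antibody.

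Neuronal, astrocytic, oligodendrocytic and microglial markers were detected on all 4 arrays, and the liver genes Alb and Apoa1 on none. Of the muscle genes, Acta1 was detected on 4 arrays, Ckm on 2 and Myh1 on 1. Of the 21 brain markers, 5 had a log2 fold change below -1 with CPEB2 IgG and 2 above 1, with a median of -0.03. The lowest were the astrocyte gene Aldh1l1 (-3.77) and the microglial gene Aif1 (-2.64), and the highest was the astrocyte gene Slc1a3 (3.44), so markers of one cell type lay on both sides of 0. Summed over its markers, the raw signal of neurons was 132070 and 129292 after CPEB2 IgG against 146220 and 142276 after control IgG. It was 32178 and 29937 against 19262 and 14669 for astrocytes, 57250 and 55323 against 61897 and 46649 for oligodendrocytes, and 14764 and 13043 against 15343 and 25211 for microglia. Single genes made up much of some sums. Slc1a3 had 28729 on CPEB2 IgG array 1 against 3302 on control IgG array 1, whereas Aldh1l1 had 1007 against 12652. The microglial gene Itgam had 15744 on control IgG array 2 against 4078 on control IgG array 1. Since each lysate was divided between the antibodies, these sums compare recovered RNA and not numbers of cells. The part of these genes in the members' values was not tested. Ttr, which is abundant in the choroid plexus, had raw signals of 6966 and 291 after CPEB2 IgG against 11608 and 289 after control IgG, so its signal followed the experiment and not the antibody. Of all spots, 68.4% to 74.1% were well above background by the scanner software, depending on the array, and none was saturated.

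Most mRNAs of the mitochondrial ribosome had a lower signal, relative to the rest of the array, with CPEB2 IgG than with control IgG. Of the 75 members tested, 50 were lower (66.7%) and 4 were higher (5.33%) with CPEB2 IgG in limma, at a threshold of 0.05 on the adjusted p-value. Over all 19698 genes tested, 20.4% were lower and 21.2% were higher. The members were brighter, with a median log2 signal, scaled by array, of 2.99 against -0.29 over all genes. The part of signal level in these shares was not tested. The median log2 fold change of the members, CPEB2 IgG over control IgG, was -1.34, against -0.11 over all genes, and it stayed below 0 under every scaling run. In 56 members the log2 fold change was below 0 in both experiments, in 12 it was above 0 in both, and in 7 the experiments differed in sign. All 75 had a probe well above background on each of the 4 arrays, so none entered the test through one antibody alone. Here and below, a fold change compares signals divided by the 75th percentile of their array, and limma's adjusted p-values are over all genes tested.

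**Figure D1:**
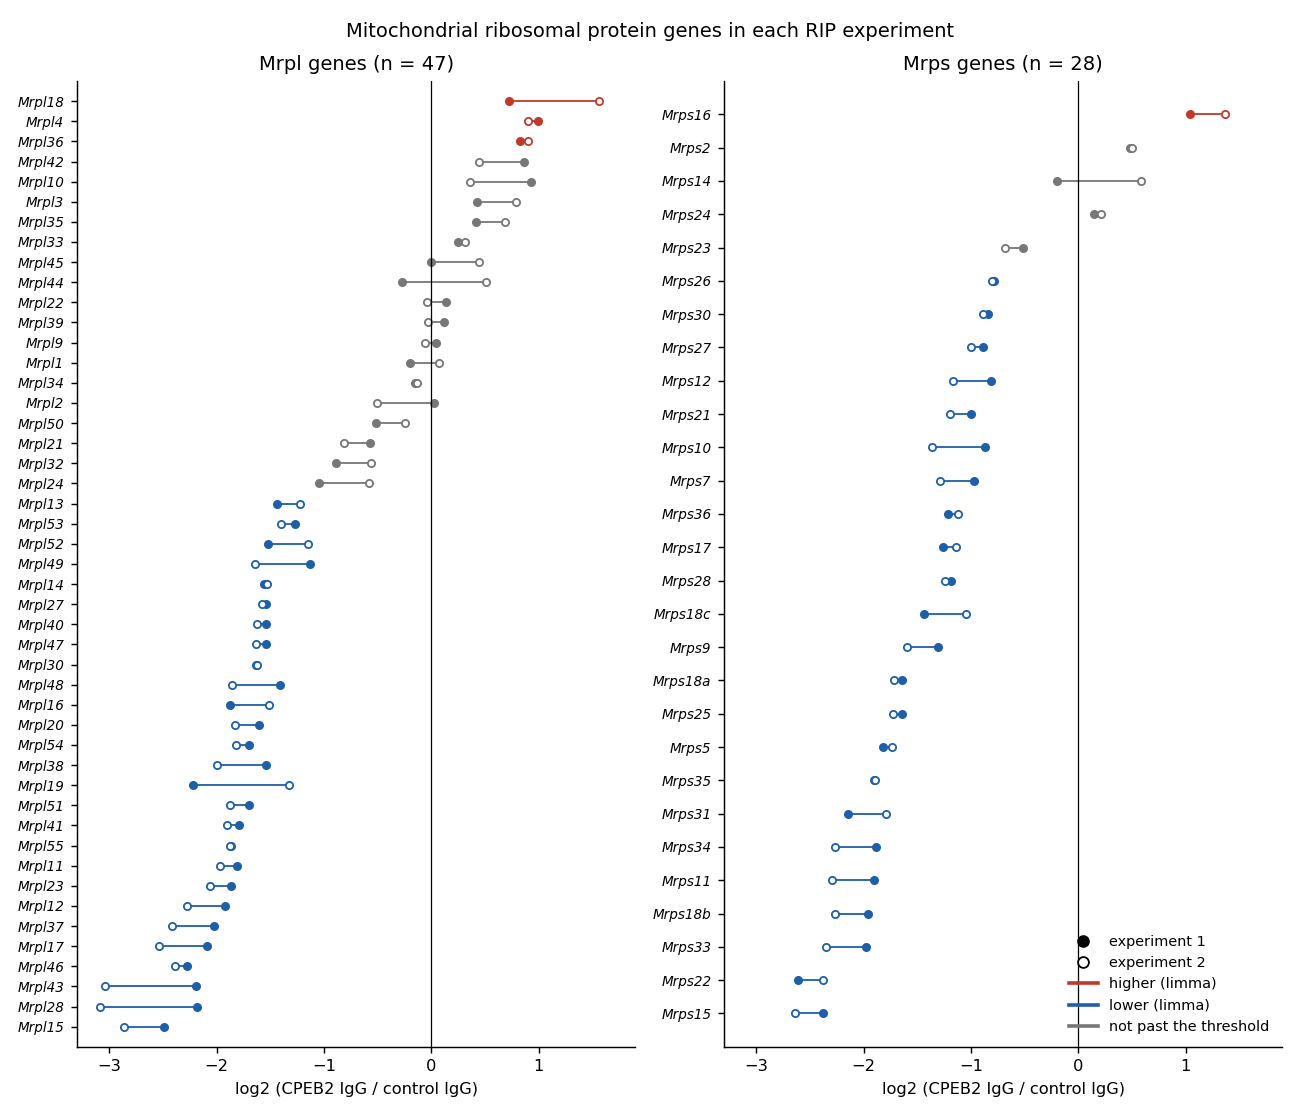
Log2 ratio of CPEB2 IgG over control IgG (x axis) for each of the 47 Mrpl and 28 Mrps genes tested (y axis), with a filled point for experiment 1 and an open point for experiment 2. Blue marks the 50 genes that were lower in limma, red the 4 that were higher and gray the 21 that did not pass the threshold.

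The 76th member, Mrps6, a small subunit protein with a bacterial counterpart, was not tested because its only spot was marked as uneven on 1 control IgG array. Its raw signals were 1766 and 1742 after CPEB2 IgG against 11538 and 4958 after control IgG. The marked spot is the brightest of the 4, and the ratio on the log2 scale was -2.62 in experiment 1 and -1.48 in experiment 2.

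The lowest members of the large subunit came from its core and from proteins that only mitochondria have. Mrpl15 (NM_001177658), which has a counterpart in bacterial ribosomes, was probed on chromosome 1 of mm9 (4766862 to 4767644, minus strand). The raw signals were 228 and 214 after CPEB2 IgG against 1359 and 1576 after control IgG. The antibodies did not overlap, and its log2 fold change came to -2.68 ± 0.26 (SD, n = 2 experiments, limma adjusted p = 0.00543), 6.39-fold lower. That value came from the brighter of its probes and did not hold at the other, as described further on.

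Mrpl28, also a core protein, had raw signals of 394 and 286 after CPEB2 IgG against 1901 and 2462 after control IgG. The log2 fold change came to -2.63 ± 0.63 (SD, n = 2, limma adjusted p = 0.00615). Mrpl43, a protein particular to mitochondrial ribosomes, had raw signals of 2458 and 1296 after CPEB2 IgG against 11868 and 10801 after control IgG, and its log2 fold change came to -2.61 ± 0.60 (SD, n = 2, limma adjusted p = 0.00611). In both genes the decrease was larger in experiment 2 than in experiment 1, and in neither did the antibodies overlap. Next in order were Mrpl46 of the central protuberance (log2 fold change -2.33), Mrpl17 at the exit of the peptide tunnel (-2.31) and the mitochondria-specific Mrpl37 (-2.22), each lower in limma. The raw signals of Mrpl37 were 86.0 and 79.2 after CPEB2 IgG against 371 and 430 after control IgG, well above background on each array and without overlap.

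In the small subunit the lowest member was Mrps15, a core protein that binds the ribosomal RNA, with raw signals of 456 and 328 after CPEB2 IgG against 2512 and 2077 after control IgG. Its log2 fold change came to -2.51 ± 0.19 (SD, n = 2, limma adjusted p = 0.00543). Mrps22, a mitochondria-specific protein whose mutations cause mitochondrial disease in humans, had raw signals of 253 and 299 after CPEB2 IgG against 1642 and 1577 after control IgG. With a log2 fold change of -2.49 ± 0.17 (SD, n = 2, limma adjusted p = 0.00543) it was 5.64-fold lower, and the antibodies lay far apart compared with the spread within each. Mrps33, also mitochondria-specific, had raw signals of 3918 and 3101 after CPEB2 IgG against 16332 and 16047 after control IgG, with a log2 fold change of -2.16 ± 0.26 (SD, n = 2, limma adjusted p = 0.00597). Its antibodies did not overlap either. Mrps18b (-2.12), the mitochondria-specific Mrps34 (-2.08) and the core protein Mrps11 (-2.10) completed the 6 lowest, all lower in limma.

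Only 4 members were higher with CPEB2 IgG. Mrps16 (NM_025440), a core protein of the small subunit probed on chromosome 14 of mm9 from 21210454 to 21210513, had raw signals of 15927 and 20615 after CPEB2 IgG against 8185 and 8149 after control IgG. Its log2 fold change came to 1.20 ± 0.23 (SD, n = 2, limma adjusted p = 0.0186). Every CPEB2 IgG signal lay above every control IgG signal.

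Mrpl18, which sits in the central protuberance of the large subunit, had raw signals of 6210 and 10448 after CPEB2 IgG against 3990 and 3606 after control IgG, a log2 fold change of 1.14 ± 0.59 (SD, n = 2, limma adjusted p = 0.0383). The spread came from the CPEB2 IgG arrays, and the antibodies did not overlap. Mrpl4, a core protein of the large subunit, had raw signals of 21627 and 18199 after CPEB2 IgG against 11469 and 9902 after control IgG, with a log2 fold change of 0.95 ± 0.07 (SD, n = 2, limma adjusted p = 0.0307) at its brighter probe and 0.04 at the other. Mrpl36, a small zinc-binding protein of the large subunit, had raw signals of 7449 and 7314 after CPEB2 IgG against 4446 and 3987 after control IgG, a log2 fold change of 0.86 ± 0.05 (SD, n = 2, limma adjusted p = 0.0395). In both genes the antibodies did not overlap.

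These 4 calls depended on the processing. Once the arrays were centred within bins of probe GC content, the values became 0.38 for Mrps16, 0.32 for Mrpl18, 0.71 for Mrpl4 and 0.63 for Mrpl36, none past the threshold, and Mrpl10 (0.95) and Mrps2 (0.80) were called higher instead. With either control IgG array left out, limma called 0 members higher (4 and 2 at an unadjusted p under 0.05), while the share of all genes called higher fell to 14.7% and 14.8%.

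Between these ends lay 21 members that did not pass the threshold. The next highest of the large subunit were the mitochondria-specific Mrpl42 at 0.65 (limma adjusted p = 0.0973), the stalk base protein Mrpl10 at 0.64 (0.115) and the core protein Mrpl3 at 0.61 (0.110). In the small subunit they were the core proteins Mrps2 at 0.49 (0.153), Mrps14 at 0.19 (0.638) and Mrps24 at 0.18 (0.577), followed by the mitochondria-specific Mrps23 at -0.60 (0.102). Mrps26, also mitochondria-specific, was the sixth highest of the small subunit and already lower with CPEB2 IgG, at -0.80 (limma adjusted p = 0.0487). With raw signals of 2684 and 4145 after CPEB2 IgG against 3275 and 2806 after control IgG, Mrps14 was one of the 7 members whose experiments went opposite ways.

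The ratio of a member in experiment 1 was close to its ratio in experiment 2. Across the 75 members Pearson's r was 0.95 and Spearman's rho 0.94, against 0.82 and 0.80 across all genes. This is a description, since the members share the arrays and are not independent replicates. All genes include many that are dimmer than the members, and the part of signal level in these correlations was not tested.

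**Figure D2:**
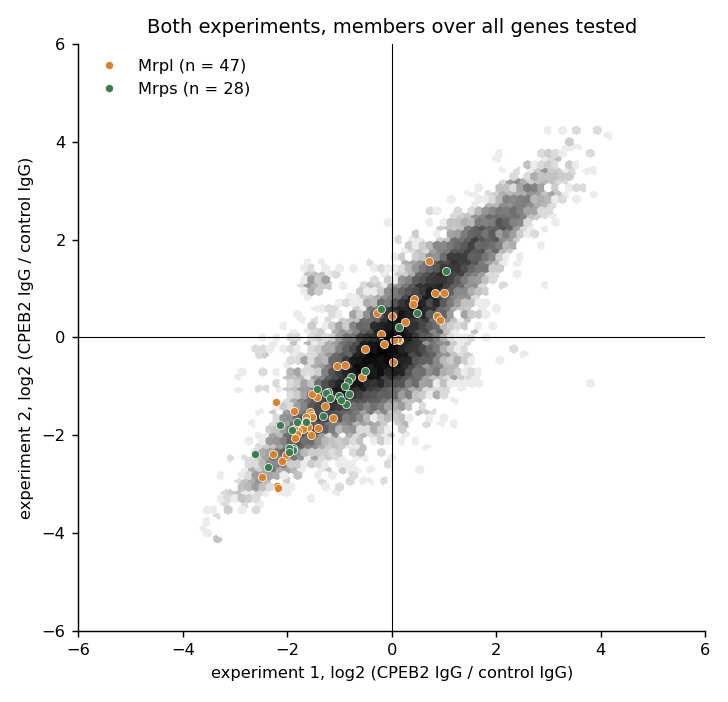
Log2 ratio of CPEB2 IgG over control IgG in experiment 1 (x axis) and experiment 2 (y axis), with all 19698 genes tested as gray hexagons, darker where genes are denser, and the 47 Mrpl and 28 Mrps genes as points. Most members lie at the lower left, where 56 of the 75 were below 0 in both experiments.

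Most genes of either subunit were lower with CPEB2 IgG. Of the 47 Mrpl genes, 27 were lower (57.4%) and 3 higher, with a median log2 fold change of -1.38. Of the 28 Mrps genes tested, 23 were lower (82.1%) and 1 higher, with a median of -1.21. The medians differed by -0.18 ± 0.04 (SD, n = 2 experiments), Mrpl minus Mrps. That SD does not cover the processing, over which the difference ran from -0.26 without control IgG array 2 to -0.023 with centring within GC bins. The median GC content of the probes was 41.7% for Mrpl and 45% for Mrps. The middle 50% of Mrpl genes lay between -1.78 and 0.02, and that of Mrps genes between -1.92 and -0.93, so the Mrpl genes held more members near 0. In the separate experiments the medians were -1.44 and -1.40 for Mrpl and -1.24 and -1.26 for Mrps. No test was made of the difference, since genes of one ribosome are not replicates.

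Some names do not match the place of the protein. Mrps30 and Mrps18a were named for the small subunit and lie in the large one, and Mrps36 is now known as a subunit of the 2-oxoglutarate dehydrogenase complex of the citric acid cycle. All of them were lower with CPEB2 IgG in limma, with log2 fold changes of -0.87 ± 0.04, -1.68 ± 0.05 and -1.17 ± 0.07 (SD, n = 2). Mrps18a, Mrps18b and Mrps18c are paralogs related to a single bacterial protein, and all were lower, at -1.68, -2.12 and -1.24. Counted by place in the ribosome, 29 of 49 large subunit genes and 20 of 25 small subunit genes were lower, with medians of -1.38 and -1.22.

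Proteins that mitochondrial ribosomes gained after their bacterial ancestor were compared with the inherited ones. Mrps18a and Mrps18b were counted as mitochondria-specific and Mrps18c with the bacterial counterparts, although all are related to a bacterial protein. In the large subunit 14 of 19 mitochondria-specific genes were lower, with a median log2 fold change of -1.58, and 15 of 30 genes with a bacterial counterpart, with a median of -1.07. In the small subunit 9 of 10 and 11 of 15 were lower, with medians of -1.93 and -1.13. The 4 genes that were higher all have a bacterial counterpart, as do 30 of the 49 large subunit genes and 15 of the 25 small subunit genes. None of the 4 passed the threshold with centring within GC bins. With median centring, normexp background correction or an intensity trend, 1 mitochondria-specific gene of the large subunit was higher too. By position, 4 of 5 stalk genes, where translation factors bind, and 6 of 7 central protuberance genes were lower, with medians of -1.76 and -1.58. Of 8 genes around the exit of the peptide tunnel 3 were lower, with a median of -0.38 and with the highest at 0.22, Mrpl45, which anchors the ribosome to the inner membrane. That group's median moved to -0.91 with centring within GC bins, where 4 were lower and Mrpl45, still the highest, was at -0.60, and to 0.00 at the most 3′ probe. These groups hold few genes, and none was tested against another.

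Genes whose products belong to the mitochondrial ribosome under other names, or work with it, were counted beside the members. Of 7 mitoribosomal proteins named otherwise, 6 were lower, with a median log2 fold change of -1.89. They included Gadd45gip1 of the large subunit (-2.50), Ict1, a peptidyl-tRNA hydrolase built into it (-2.31), and Dap3 of the small subunit (-1.92). The exception was Ptcd3, an RNA-binding protein of the small subunit, at -0.20 (limma adjusted p = 0.527).

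Of 12 mitochondrial translation factors, 5 were lower, with a median log2 fold change of -0.66. The lowest was Tufm, the elongation factor that delivers aminoacyl-tRNA, with raw signals of 1396 and 1327 after CPEB2 IgG against 7818 and 7193 after control IgG. Its log2 fold change came to -2.41 ± 0.01 (SD, n = 2, limma adjusted p = 0.00543). With no filter on dim probes 2 of the factors were lower, and 3 without control IgG array 2. Of 25 assembly factors tested, 14 were lower and 2 higher, with a median of -1.30. The RNA helicase Ddx28 was at -2.67, and the GTPase Gtpbp10 (0.95) and the methyltransferase-like Mettl17 (0.81) were the higher ones, though neither remained so with no filter on dim probes or without either control IgG array.

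Genes with Nduf symbols, most of which name subunits of respiratory complex I, the largest complex served by mitochondrial translation, were taken by symbol alone. Of 37 such genes 36 were lower, with a median log2 fold change of -1.77. The exception was Ndufa8 at -0.44 (limma adjusted p = 0.315). Proteins of the cytosolic ribosome, which translates the members' own mRNAs, were divided. Of 80 tested, 30 were lower (37.5%) and 14 higher (17.5%), against 20.4% and 21.2% of all genes, their median being -0.64 and their range -1.80 to 2.44. With no filter on dim probes 7 were lower and 5 higher. With arrays left out and no block, 7 were lower and 8 higher without control IgG array 1, 14 and 6 without control IgG array 2, and 21 and 8 without CPEB2 IgG array 2. These medians stand beside -0.11 over all genes and were not tested against those of the members.

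**Figure D3:**
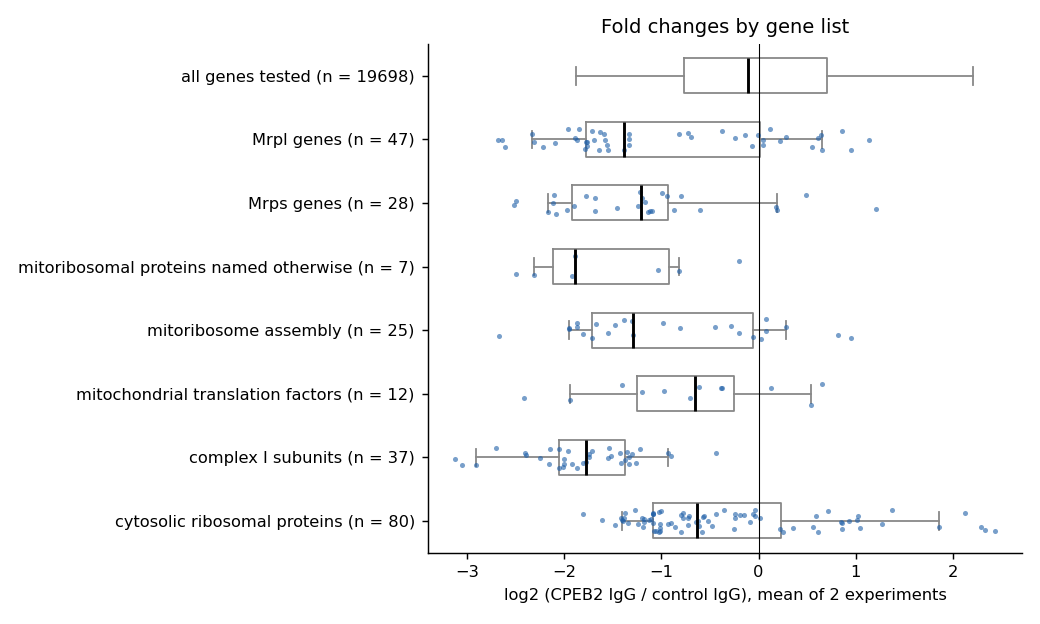
Mean log2 ratio of CPEB2 IgG over control IgG (x axis) for all genes tested and 7 gene lists (y axis), with a point per gene except for all genes. The bold line is the median, the box the middle 50%, and the whiskers run from the 5th to the 95th percentile. The medians of Mrpl and Mrps genes, -1.38 and -1.21, lie between those of complex I subunits and cytosolic ribosomal proteins.

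A second probe showed whether a value held elsewhere under the same gene symbol. Probes of a gene need not lie on the same transcript, and those of Mrpl30 were listed on chromosomes 11 and 1. Of 26 members with at least 2 detected probes, 6 had probes that differed by over 1 in log2 fold change, and in 6 the probes lay on opposite sides of 0. Between the most 3′ and the most 5′ probe, the first was higher by over 1 in 24% of the members with such a pair and in 31.9% of all such genes, so a gap of that size was no more frequent among the members. In Mrpl15 the probe nearer the 3′ end, on chromosome 1 of mm9 from 4764533 to 4764592, had raw signals of 223 and 142 after CPEB2 IgG against 185 and 123 after control IgG. There the antibodies overlapped and the log2 fold change was 0.29, against -2.68 at the 5′ probe, whose centre lay 2690.5 bases away along the genome.

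Mrps25, a mitochondria-specific protein of the small subunit, was at 0.32 at its 3′ probe and -1.68 at its 5′ probe. Mrpl47, next to the peptide tunnel, was at 0.62 at the most 3′ of 4 probes and -0.96 at the most 5′, with its brightest probe in between at -1.58. In Mrps14 the 3′ probe had raw signals of 1101 and 1163 after CPEB2 IgG against 354 and 386 after control IgG, a log2 fold change of 1.67, against 0.19 at its 5′ probe. Mrpl15, Mrps25 and Mrpl47 were thus lower at the brightest probe and above 0 at the most 3′ probe, and Mrps14 was above 0 at both. Mrps23 and the large subunit protein Mrpl41 were higher at the 3′ probe as well, at -0.60 against -2.07 and at -0.45 against -1.85.

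Over the 25 members whose probes could be ordered along the gene, the 3′ probe had the higher log2 fold change in 17 (68%), by a median of 0.35. Over all 5412 such genes it did so in 71.9%, by a median of 0.48. The members thus lay near the level of all genes. Distances are along the genome and can include introns, and the annotation used does not say in which exon or untranslated region a probe lies.

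**Figure D4:**
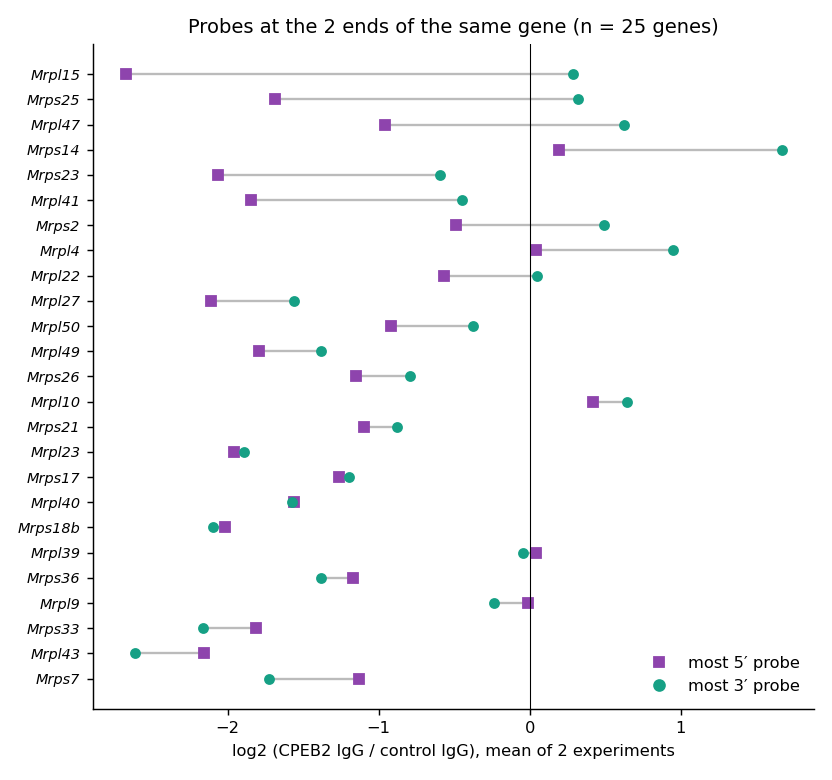
Mean log2 ratio of CPEB2 IgG over control IgG (x axis) at the most 5′ probe (squares) and the most 3′ probe (circles) of each of 25 members (y axis). The circle lies to the right of the square in 17 genes, farthest in Mrpl15, from -2.68 to 0.29.

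The letters AATAAA, the most common poly(A) signal near the 3′ end of an mRNA, stand in the brightest probe of 5 genes that were higher with CPEB2 IgG or whose probes differed by over 1. These windows of 30 bases from the probe, with the signal in capitals, are shown to set those opposite directions beside each other. Positions are those of the whole probe on mm9.
Mrps16, chr14:21210454-21210513, minus strand, log2 fold change 1.20: ttgggttttaaggatcAATAAAtggagttt
Mrpl4, chr9:20813220-20813279, plus strand, log2 fold change 0.95: tgtcacattaaaAATAAAccctatttttca
Mrps14, chr1:162129889-162129948, plus strand, log2 fold change 0.19 at its 5′ probe: gtacaagagtggAATAAAcatattttctgt
Mrps23, chr11:88024940-88024999, plus strand, log2 fold change -0.60: gtgttgtgttacaccaAATAAAtgcgatat
Mrps25, chr6:92124834-92124893, minus strand, log2 fold change -1.68 at its 5′ probe: tgaacagatgtcAATAAAagatttagtctt
In Mrps14 and Mrps25 another probe lay farther 3′, 491 and 5304 bases away. AATAAA was in 25 of the member probes measured (23.8%), against 13.4% of 33215 probes of all genes, read on the strand listed in the array annotation. A match is a description of these letters and not of a site in use.

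The CPE was searched in the same probes as TTTTAT or TTTTAAT on the listed strand. It was in 5 of the member probes (4.76%) and in 5.20% of all gene probes, so the members' share was near that of all genes. The windows, with the CPE letters in capitals, are shown because they come from every member in which a probe held the motif.
Mrpl44, chr1:79777892-79777951, plus strand, log2 fold change 0.12: tacagctagatgtaTTTTATtccctccagc
Mrpl9, chr3:94252112-94252171, plus strand, log2 fold change -0.01: ttctgacagttgTTTTATtctcagccagac
Mrps18b, chr17:36047331-36047390, minus strand, log2 fold change -2.12: tcctggctcagcTTTTATacaataaagctg
Mrps26, chr2:130391070-130391129, plus strand, log2 fold change -0.80: aatgtttcctgcTTTTATaaataaagtatt
The windows of Mrps18b and Mrps26 also hold AATAAA behind the CPE letters. The Mrps18b stretch was held by a pair of overlapping probes, the other at -2.10. Mrps18b and Mrps26 were lower in limma, and Mrpl44 and Mrpl9 did not pass the threshold (adjusted p = 0.779 and 0.978). Mrpl44 and Mrpl9 are named for the motif alone. A probe covers a short stretch of a transcript, so a probe without these letters says nothing about the rest of it.

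Probe base composition moved with the values. Across the 75 members Pearson's r between probe GC content and log2 fold change was -0.39, and across all genes tested it was -0.36. The points share the arrays and the labelling, so these are descriptions. The median GC content was 36.7% in the 3 higher Mrpl genes, 43.3% in the 27 lower ones and 40% in the 17 others, and in Mrps genes it was 35%, 45% and 43.3%. The part of base composition in the lower signal was not tested beyond the centring within GC bins, after which 49 of the 50 lower members were still lower. The medians were then -1.27 for Mrpl and -1.25 for Mrps. Pearson's r between signal level and log2 fold change was 0.24 across the members.

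**Figure D5:**
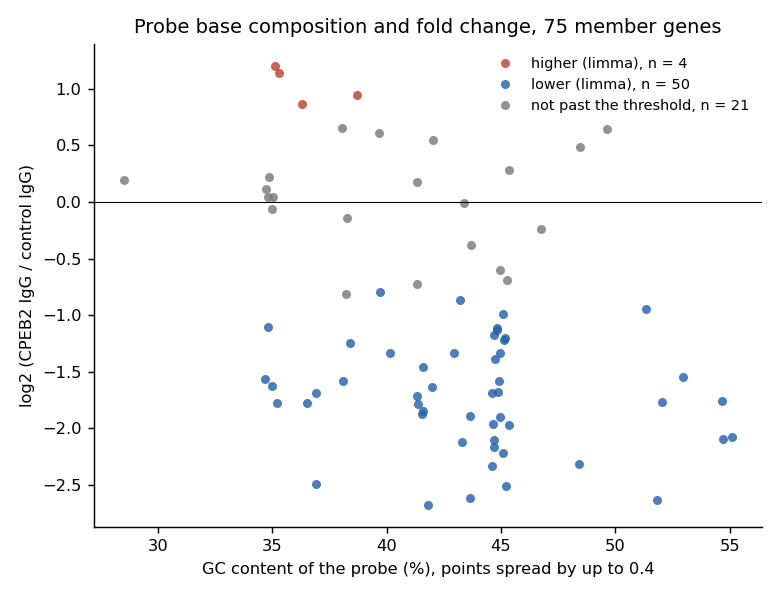
GC content of the probe in percent (x axis, points spread by up to 0.4) and mean log2 ratio of CPEB2 IgG over control IgG (y axis) for the 75 members. The 4 higher genes (red) lie between 35% and 38.3% GC, while the 50 lower genes (blue) run from 35% to 55%.

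A cutoff without a test was also applied, a mean fold change above 1.5 together with a raw signal over 1000 on 1 or both CPEB2 IgG arrays, at any probe of the gene. It was passed by 8 of the 56 members with that signal (14.3%), against 47.7% of all such genes. They were Mrpl3, Mrpl4, Mrpl10, Mrpl18, Mrpl36, Mrpl42, Mrps14 and Mrps16, with Mrps14 passing at its 3′ probe. The same cutoff turned around, with the signal taken from control IgG, was passed by 51 of 69 members (73.9%), against 41.3% of all such genes.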

How the data were processed

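The data are 4 one-color Agilent arrays of RNA precipitated with CPEB2 IgG or control IgG. The authors deposited the output of Agilent Feature Extraction 10.5.1.1 for each array, an intensity per spot after the software's background correction and before any scaling between arrays. Gene symbols and mm9 positions are those of the array annotation. The paper names no normalization or test for these arrays.

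Control spots were removed, as were spots that the software called non-uniform or population outliers. Repeated spots were averaged, and 66 probes without a value on some array were dropped. The deposited intensity was put on the log2 scale, and the 75th percentile of the 55615 remaining probes was subtracted from each array. The brightest probe stood for a gene, among probes well above background on at least 2 of 4 arrays. limma 3.58.1 in R 4.3.3 was fitted to all 19698 genes with the experiment as a block. P-values were adjusted by Benjamini-Hochberg, and the threshold was 0.05. The methods divide one lysate between the antibodies, which is where the pairing comes from, and the deviations of same-numbered arrays had a correlation of 0.20. The 2 experiments are described as independent. With 2 arrays for each antibody, the number of arrays limits the precision. Probe positions and base composition were read from the files. The fit was run on simulated data, with gene variances drawn from limma's own fit, to check that it returned the changes put in. That check does not show how well the adjusted p-values hold on these arrays.

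The members and gene lists were chosen with earlier results of these data known. Genes were named by rule: in Mrpl and in Mrps the 6 with the highest and the 6 with the lowest log2 fold change, members whose probes differed by over 1, members whose experiments differed in sign although called, and Mrps18a, Mrps18b, Mrps18c, Mrps30 and Mrps36. Mrpl2, Mrpl9, Mrpl22, Mrpl39, Mrpl44 and Mrpl45 fall outside it and were named after their values were seen. Mrps6, the member not tested, and Mrpl30, named for the listed places of its probes, fall outside it as well. Other genes came from lists of mitoribosomal proteins named otherwise, mitochondrial translation factors, assembly factors, complex I subunits and cytosolic ribosomal proteins. Places in the ribosome were assigned from general knowledge of its structure. No list was tested as a set. Alternatives were other scalings, normexp background correction with an offset of 50, centring within 10 bins of probe GC content, marked spots kept, other filters and other probes, no block, an intensity trend, arrays left out and other cutoffs. The most 3′ probe was an alternative added after seeing the data. Figures were drawn with matplotlib 3.10.9 in Python 3.11.15.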

Additional observations from a re-analysis of the deposited data

How the results depend on the processing

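The direction of both medians held under every alternative run. For Mrpl and Mrps genes they were -1.48 and -1.31 after quantile normalization, -1.16 and -0.98 after median centring, -1.44 and -1.26 with no scaling, -1.49 and -1.31 with the percentile over detected probes, -1.27 and -1.25 with centring within GC bins, -1.33 and -1.26 with the mean of the probes, and -1.33 and -1.23 with the most 3′ probe. Quantile normalization, median centring and the percentile over detected probes moved the median of all genes by 0.13, 0.23 and -0.11, and against that median the members lay at -1.40, -1.22 and -1.22, compared with -1.22 before. The Mrpl median minus the Mrps median was -0.023 with centring within GC bins, -0.071 with the mean of the probes and -0.10 with the most 3′ probe, against -0.18 before. Members higher numbered 8 with normexp background correction, 7 with an intensity trend, 2 with GC centring and 0 with no filter on dim probes (4 at an unadjusted p under 0.05), beside 25.2%, 25%, 17.6% and 9.37% of all genes. With no such filter limma tested more genes and called 37 members and 7.60% of all genes lower. With a fold above 2, 3 members passed the cutoff, and 5 with a fold above 1.5 in each experiment.

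Without the replicate block limma called 4 members higher and 51 lower. With each array left out in turn, without the block, the members higher ranged from 0 to 3 and those lower from 38 to 49, and 0 were higher without either control IgG array. Without control IgG array 1 the calls over all genes fell to 14.7% higher and 12.1% lower, and without control IgG array 2 to 14.8% and 12.8%. The Mrpl median then ranged from -1.46 to -1.36, with -1.41 without control IgG array 1, and the Mrps median from -1.30 to -1.19. Their difference was -0.065 and -0.13 without CPEB2 IgG array 1 and 2, and -0.22 and -0.26 without control IgG array 1 and 2. With either experiment left out the medians were -1.40 and -1.44 for Mrpl and -1.26 and -1.24 for Mrps, with no test. An antibody left with a single array was assumed to vary like the other. Over the limma settings on 4 arrays, the main one included, 33 members were lower in each of the 14, and none was called in opposite directions. Among the genes named by rule, the sign reversed for Mrpl15 (0.29), Mrpl47 (0.62) and Mrps25 (0.32) at the most 3′ probe, and for Mrps14 with GC centring (-0.63), without experiment 2 (-0.20, against 0.59 without experiment 1) and without CPEB2 IgG array 2 (-0.12). Over all members GC centring reversed 7, Mrps14 with Mrpl2, Mrpl9, Mrpl22, Mrpl39, Mrpl44 and Mrpl45, none of them past the threshold before or after. Apart from the probe chosen, the cause was not tested. For the 31 genes named by rule, 462 of 527 values with a test kept sign and side of the threshold, 44 lost the call, 16 gained it and 5 reversed.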
